A study of Mus musculus with 3 samples.

Results

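The genes described here encode the machinery that fuses membranes and sorts cargo on endosomes: the SNARE proteins, their regulators, the synaptotagmins, the VPS and CHMP proteins and the sorting nexins. A gene was a member if its symbol in the array's annotation begins with Stx, Stxbp, Vamp, Snap, Syt, Sytl, Vti1, Bet1, Gosr, Sec22, Cplx, Vps, Snx or Chmp (with a digit after Stx, Vamp, Snap, Syt, Vps, Snx and Chmp), or is Ykt6, Napa, Napb or Napg, and if at least 1 probe set named that gene alone. Of 19938 named genes 145 were members, measured by 150 probe sets. RNA came from 1 group of 3 replicate samples. They are labelled spermatids, the haploid germ cells that mature into sperm, and were taken from testes of wild type BALB/c males aged 30 days. Each sample was measured on an Affymetrix Mouse Gene 1.0 ST array, which carries probes along the exons of each gene. With a single group there was no comparison between conditions, and each gene was set against a background level on the same arrays. The labels do not say whether the replicates came from separate animals, so the spread between arrays may be technical.

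SNARE proteins sit on vesicles and on their target membranes and zip into a bundle that pulls the membranes together. R-SNAREs usually ride on the vesicle and Q-SNAREs on the target, the ATPase NSF with its SNAP adaptors takes spent bundles apart, and synaptotagmins and complexins tie fusion to calcium in neurons and gland cells. On endosomes, retromer and the sorting nexins return cargo, HOPS and CORVET tether membranes before fusion, and the ESCRT complexes bud vesicles into the endosome and cut membrane necks. In spermatids these routes feed the acrosome, a large secretory granule made from Golgi and endosomal membrane, and SNARE-driven fusion later releases it.

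All values are levels on the log2 scale after the authors' normalization, and an error is the SD over the 3 arrays. As background served 211 genes of vomeronasal receptors and hair keratin associated proteins, with a median of 4.77. Their 95th percentile, 7.98, is called the background level below. A gene was called when limma's one-sided test put its mean above that level at an adjusted p below 0.05, and a gene that was not called is not shown to be absent. Probes differ in binding strength, so an order of levels between genes is not an order of RNA amounts. Where a gene is said to have tied values, its 3 arrays held exactly the same number, the SD was 0, and its p carries no information on replicate error. Such genes are given by their level alone. Of the 77 other members, arrays 1 and 2 held the same number in 20, and arrays 1 and 3 in 20. Arrays 2 and 3 did so in 5. In those genes the SD, SE and p rest on 1 array that differs, so they are a poor measure of replicate error.

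Of the 145 members 72 were called above background, 49.7% against 36.6% of all named genes. Their median level was 8.11, against 7.45 over all named genes, and their levels ran from 5.80 for Napb to 11.32 for Vps13a. The share differed by role. Among the SNAREs 21 of 34 genes were called, and among the endosomal sorting genes (VPS, CHMP and sorting nexin groups) 43 of 72. Among the regulators of fusion (SNAP adaptors, complexins, syntaxin-binding proteins, synaptotagmins and synaptotagmin-like proteins) 8 of 35 were called, which is 22.9% and below the 36.6% of all named genes. The regulators were not alike, since 4 of 6 syntaxin-binding proteins and 2 of 3 SNAP adaptors were called. Of the synaptotagmins 2 of 17 were, of the synaptotagmin-like genes 0 of 5 and of the complexins 0 of 4. All these shares depend on the level. With a level of 7.18, taken in the same way from 1027 olfactory receptor genes, 109 of 145 members were called (55% of all named genes), and at the 99th percentile of the first families, 9.16, 34 members were (19.3% of all named genes). By role, the olfactory receptor level gave 27 of 34 SNAREs, 59 of 72 sorting genes and 19 of 35 regulators, the last at 54.3% and so near the 55% of all named genes. The 99th percentile level gave 9, 23 and 2 genes.

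**Figure D1:**
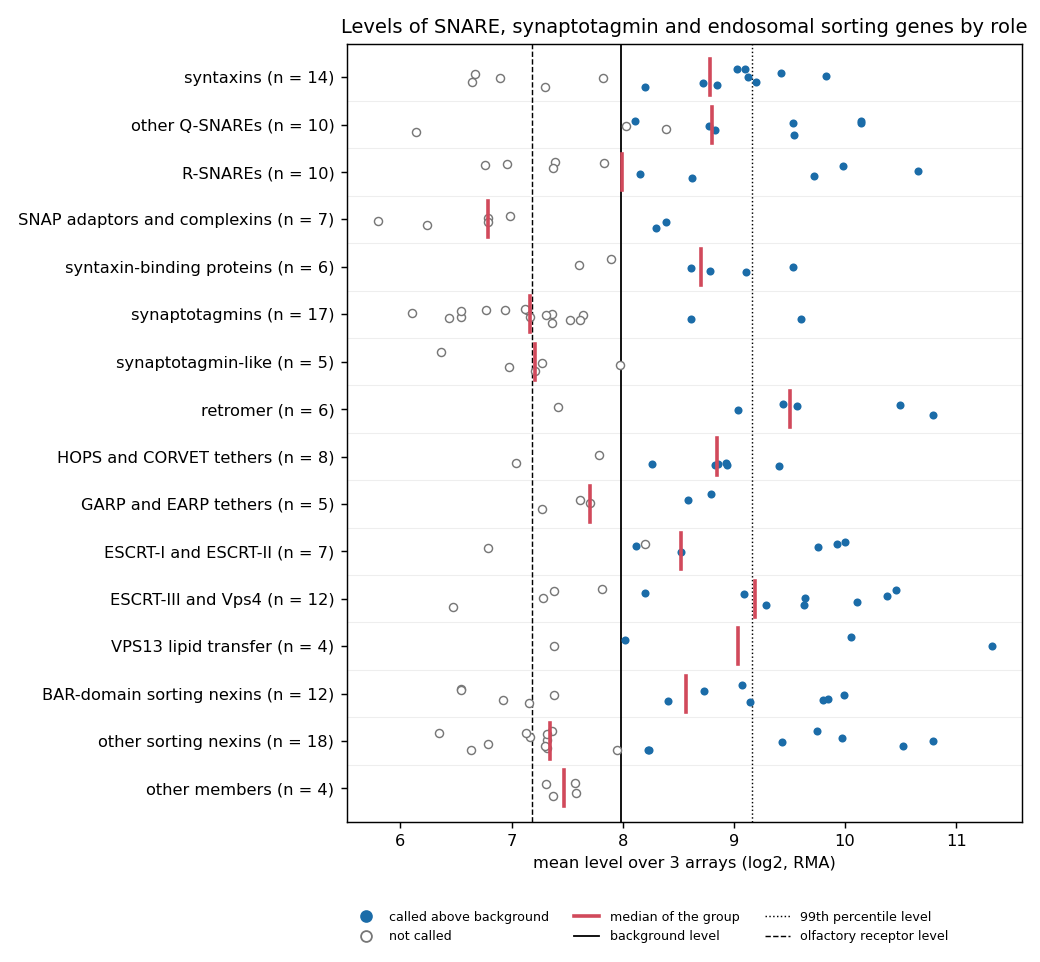
Mean log2 level of each of the 145 members over 3 arrays (x axis), by role (rows). Filled points are genes called above background, open points are not called, red bars are group medians, and the vertical lines are the background levels of 7.18, 7.98 and 9.16. The medians of the synaptotagmins, 7.16, and the synaptotagmin-like genes, 7.21, lie left of the solid line, and that of the retromer genes, 9.50, lies right of all 3 lines.

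The arrays carried the RNA of several cell types. Per the labels' protocol the tubules were cut, homogenised and strained to a cell suspension, with no sorting step described. All 12 spermatid markers were called, with a mean of 12.05 to 12.11 over the arrays, from Prm2, a protamine, at 13.22 to Catsper3, a sperm ion channel gene, at 10.31. All 10 spermatocyte markers were called too, with a mean of 10.50 to 10.62. So were 3 of 10 markers of spermatogonia, 30% against 36.6% of all named genes. Somatic markers were called for 5 of 6 Leydig cell genes (mean 10.06 to 10.17), 6 of 9 Sertoli cell genes (9.24 to 9.26), 4 of 8 peritubular, endothelial and stromal genes (8.0 to 8.09) and 3 of 7 blood and immune genes (7.75 to 7.80). The share was 50% for the peritubular, endothelial and stromal genes and 42.9% for the blood and immune genes, against 36.6% of all named genes. Of 10 markers of neurons and endocrine cells, 2 were called, Tubb3 at 9.23 and Map2 at 9.14. Syp, a synaptic vesicle gene, was at 6.90 and Neurod1 at 5.01. One marker in that list, Snap25, is itself a member. The members are expressed widely, so a level given below is that of the mixture, the part of each cell type in it was not tested, and fewer cells of a type cannot be told apart from less RNA per cell.

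Syntaxins are Q-SNAREs that mark target membranes, and 9 of the 14 measured were called, 64.3% against 36.6% of all named genes. At the 99th percentile level this turned, with 2 of 14 called, 14.3% against 19.3% of all named genes. Stx8, a late endosomal syntaxin, was at 9.79, 9.79 and 9.90 on arrays 1, 2 and 3, a mean of 9.83 ± 0.06 (n = 3) that was 1.85 above the background level (SE 0.03, adjusted p = 0.00023, limma). Stx12, the syntaxin of recycling endosomes, was at 9.17, 9.17 and 9.25, or 1.21 above the level (SE 0.03, adjusted p = 0.000337). Its call ended at the 99th percentile level (adjusted p = 0.762, limma). In both Stx8 and Stx12 replicate 3 was the array that stood apart. Stx2, a plasma membrane syntaxin whose loss in mice stops spermatogenesis, had tied values at 9.42. Stx17, which works in the fusion of autophagosomes with lysosomes, was at 9.13, Stx5a of the Golgi at 9.10 and Stx4a of the plasma membrane at 9.03 ± 0.05. Stx16 (8.85 ± 0.02), Stx18 (8.73, tied) and Stx7 completed the called syntaxins. Stx7, another late endosomal syntaxin, was 8.21, 8.16 and 8.21, only 0.21 above the level, and its call ended without replicate 1 (adjusted p = 0.0629, limma) and without replicate 3 (adjusted p = 0.0947).

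The syntaxins that were not called include those best known from regulated secretion. Stx1a, the syntaxin of synapses, was at 7.27, 7.42 and 7.21, and Stx3, found on apical membranes and at ribbon synapses, had tied values at 6.67. Stx11, a syntaxin of killer lymphocytes, was at 6.89 ± 0.06, and Stx6 of the trans-Golgi network had tied values at 7.82. The lowest level in the group was that of Stx19, 6.64 on each array.

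Among the other Q-SNAREs 7 of 10 were called, 70% against 36.6% of all named genes. Gosr2, a SNARE of early Golgi traffic also named membrin, had tied values at 10.15. Snap23, the widely expressed relative of the synaptic SNAP-25, was at 10.12, 10.12 and 10.19, which is 2.16 above the level (SE 0.02, adjusted p = 8.55e-05, limma). Snap25 itself had tied values at 6.14, far below the level, and Snap29 and Snap47, the remaining members of that family, were at 9.53 ± 0.06 and 8.78. Vti1b, a late endosomal SNARE, was at 9.54, 9.54 and 9.55. Its relative Vti1a was at 8.06, 7.97 and 8.06, a mean 0.05 above the level that was not called (adjusted p = 0.304, limma). Without replicate 2 the remaining arrays were equal and Vti1a was called, 0.117 above a level that had itself dropped to 7.94.

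Bet1 and Gosr1, SNAREs of the Golgi, were among the members with the widest ranges over the arrays, while Gosr2, Bet1l and Ykt6 had tied values. Bet1 was at 8.36 in replicate 1, 8.17 in replicate 2 and 8.63 in replicate 3, a range of 0.47 that no other member reached. All 3 arrays lay above the background level, but the mean excess of 0.40 (SE 0.13) was not called (adjusted p = 0.0997, limma), whereas the call was made when the arrays were shifted to a common median (adjusted p = 0.0312, limma). Gosr1 was at 8.83, 8.66 and 9.0, and its call with 3 arrays (adjusted p = 0.0108) ended when any single replicate was left out (adjusted p = 0.0633 to 0.109). Both genes were low in replicate 2 and high in replicate 3. Bet1l, with tied values, stood 0.13 above the level at 8.11.

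R-SNAREs were called in 5 of 10 genes, 50% against 36.6% of all named genes. Vamp3, or cellubrevin, the R-SNARE of recycling endosomes, was at 10.63, 10.57 and 10.77, a mean of 10.66 ± 0.10 and 2.68 above the level (SE 0.06, adjusted p = 0.000334, limma). Vamp4 of the trans-Golgi network was at 9.97, 9.97 and 10.01, and Sec22b, which serves traffic between endoplasmic reticulum and Golgi, at 9.72, 9.65 and 9.78. In each of these genes replicate 3 held the top value, as in most called genes with untied values (79.4% above replicate 2, 63.2% above replicate 1). Vamp5 was at 8.63 ± 0.06, a call that ended without replicate 3 (adjusted p = 0.0589), and Sec22a had tied values at 8.16. Vamp8 (7.83), Vamp7 (7.39 ± 0.05), Ykt6 (7.37) and Sec22c (6.96) were not called. The lowest level was that of Vamp1, a synaptic vesicle R-SNARE, at 6.75, 6.77 and 6.75. Vamp2, its close relative, was named only by a probe set that also names Ubr3 and was therefore not counted.

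The adaptors and clamps around the SNARE bundle were called in 2 of 7 genes, 28.6% against 36.6% of all named genes. Napa, or alpha-SNAP, the adaptor that brings NSF to the bundle, had tied values at 8.39, and Napg, or gamma-SNAP, was at 8.29, 8.29 and 8.33. Napb, the form known from brain, had tied values at 5.80. None of the 4 complexin genes was called, also with the lower olfactory receptor level, and by limma none had an unadjusted p below 0.05. Cplx1 was at 6.99 on each array, Cplx2 and Cplx4 both at 6.79, and Cplx3 at 6.24, 6.39 and 6.10. The complexins thus lay within the range of the background families on every array.

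Syntaxin-binding proteins were called in 4 of 6 genes, 66.7% against 36.6% of all named genes. At the 99th percentile level 1 of 6 was, 16.7% against 19.3% of all named genes. Stxbp5, or tomosyn, which holds syntaxin away from its partners, had tied values at 9.53. Stxbp2, a Munc18 protein of secretory cells, was tied at 9.11 and Stxbp6, or amisyn, at 8.79. Stxbp3, the Munc18 protein of most tissues, was at 8.66, 8.46 and 8.74, with replicate 2 below the others. Its call ended without replicate 1 (adjusted p = 0.126, limma) and without replicate 3 (adjusted p = 0.135). Stxbp5l was at 7.89, 7.89 and 7.92 and Stxbp4 at 7.61, 7.57 and 7.65, neither called.

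Synaptotagmins, membrane proteins with paired C2 domains, were called in 2 of 17 genes, 11.8% against 36.6% of all named genes. Syt11, a form that does not bind calcium, had tied values at 9.61, and Syt10 had tied values at 8.61. The remaining 15 genes ran from 6.10 to 7.64. Syt9 was at 7.60, 7.72 and 7.60, Syt1, the calcium sensor of synapses, was at 7.16 on each array, and Syt7, a slower sensor, at 7.14. Syt8 and Syt6, which have been studied in the acrosome reaction of sperm, were at 7.31 ± 0.02 and 6.94 ± 0.08, both below the level. Syt16 was lowest, tied at 6.10. With the olfactory receptor level 8 of 17 were called, 47.1% against 55% of all named genes, and at the 99th percentile level 1 of 17, 5.88% against 19.3%.

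None of the 5 synaptotagmin-like genes, whose proteins link Rab27 on granules to the plasma membrane, was called, against 36.6% of all named genes. By limma none had an unadjusted p below 0.05 either. With the olfactory receptor level 3 of 5 were called, 60% against 55% of all named genes. Sytl4, or granuphilin, had tied values at 7.97, just under the level. It passed when replicate 2 was left out, since the background level itself then dropped to 7.94. Sytl5 was at 7.25, 7.25 and 7.31, but this is the middle of probe sets at 7.82 and 6.73, both below the level. Sytl2 was tied at 7.21, and Sytl3 was lowest at 6.43, 6.34 and 6.34.

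**Figure D2:**
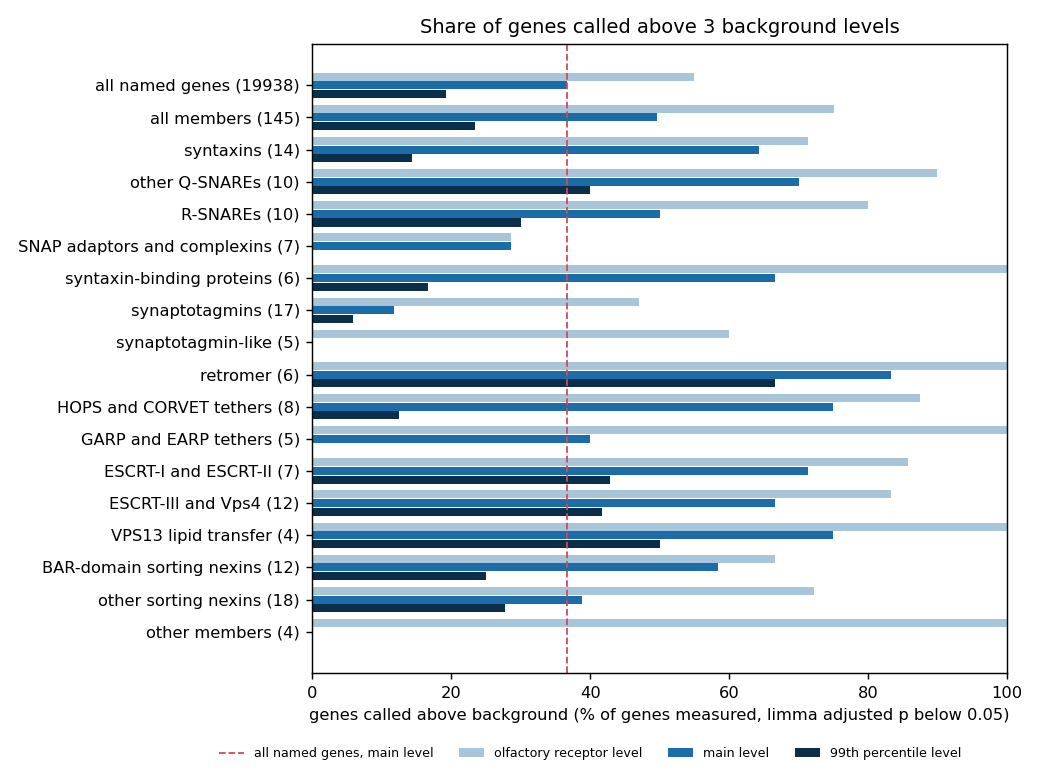
Share of genes called above background (x axis, % of genes measured) for all named genes, all members and each role (rows, number of genes in brackets). Bars give the main level and the 2 alternative levels, and the dashed line is the 36.6% of all named genes at the main level. The synaptotagmins, at 11.8%, lie below the dashed line and the retromer genes, at 83.3%, above it.

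Retromer and its relative retriever, which recover cargo from endosomes, were called in 5 of 6 genes, 83.3% against 36.6% of all named genes. Vps26a was at 10.76, 10.66 and 10.95, a mean of 10.79 ± 0.15 and 2.81 above the level (SE 0.08, adjusted p = 0.000626, limma). Vps35, the scaffold subunit, was at 10.47, 10.44 and 10.59, or 2.52 above the level (SE 0.04, adjusted p = 0.000214). Replicate 3 was again the highest array in both, an order common among all called genes. Vps26b, the alternative to Vps26a, was at 9.57, 9.55 and 9.57, and the third core subunit gene, Vps29, had tied values at 9.44. Of the retriever genes, Vps35l was tied at 9.04 and Vps26c at 7.41, the latter not called. At the 99th percentile level 4 of the 6 genes remained, 66.7% against 19.3% of all named genes.

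The list for the tethers HOPS and CORVET, which hold endosomes and lysosomes together before fusion, had 6 of 8 genes called. That is 75%, against 36.6% of all named genes. At the 99th percentile level this turned, with 1 of 8 called, 12.5% against 19.3% of all named genes. Vps39 had tied values at 9.41 and Vps11 at 8.94, while Vps41 was at 8.90, 8.90 and 8.97. Vps33a (8.83, tied), the SNARE-binding subunit, and Vps16 (8.26, tied) were also called. Vps33b, counted in the list as a relative of Vps33a, was at 8.86 ± 0.07. It was called with 3 arrays but not without replicate 3 (adjusted p = 0.0508, limma). Vps8, a subunit of CORVET, at 7.79 and the shared core subunit Vps18 at 7.04 had tied values below the level.

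Of the GARP and EARP tethers, which receive endosome-derived vesicles at the Golgi and at recycling endosomes, 2 of 5 genes were called, near the 36.6% of all named genes. Vps50, the subunit particular to EARP, was at 8.77, 8.77 and 8.83, and Vps53, shared by both complexes, had tied values at 8.59. Vps54, the subunit particular to GARP, is mutated in the wobbler mouse, whose males lack a normal acrosome. It had tied values at 7.62, below the background level, and the shared subunits Vps51 and Vps52 were tied at 7.71 and 7.27. With the olfactory receptor level all 5 genes were called (55% of all named genes), and at the 99th percentile level 0 were by limma, 0 at an unadjusted p below 0.05 (19.3% of all named genes called).

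ESCRT genes were called in 13 of 19 cases, 68.4% against 36.6% of all named genes. In ESCRT-I and ESCRT-II, which gather ubiquitinated cargo, 5 of 7 were called. Vps28 had tied values at 10.00, Vps36 was at 9.95, 9.89 and 9.95, and Vps37a was tied at 9.75. The 4 Vps37 forms, which replace one another in ESCRT-I, did not share a call: Vps37c was tied at 8.12 and called, Vps37d at 8.20, 8.34 and 8.07 was not (adjusted p = 0.104, limma), and Vps37b was tied at 6.78. Vps25 of ESCRT-II was tied at 8.53.

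In ESCRT-III, the filament that cuts membrane necks, and its ATPase VPS4, 8 of 12 genes were called (36.6% of all named genes). Chmp2a had tied values at 10.46 and Chmp2b at 10.11. Vps4a was at 10.37, 10.37 and 10.38, or 2.39 above the level (SE 0.0034). Its partner Vps4b had a gene level of 9.63 ± 0.05, but this is the middle of probe sets at 10.53 and 8.72, both above the level. Chmp4b (9.64 ± 0.06), Chmp5 (9.29 ± 0.05), Chmp3 (9.09) and Chmp7 (8.20, tied) were called as well. Chmp6 at 7.82, Chmp1a at 7.38 and Chmp1b at 7.29 ± 0.13 were not, and Chmp4c was lowest at 6.46, 6.48 and 6.46.

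The VPS13 proteins are long channels that carry lipids between membranes, and 3 of 4 genes were called (36.6% of all named genes). Vps13a, the counterpart of the gene mutated in chorea-acanthocytosis, was at 11.32, 11.19 and 11.44, a mean of 11.32 ± 0.12 and 3.34 above the level (SE 0.07, adjusted p = 0.000315, limma). Its level exceeded that of 97.0% of named genes, and replicates 2 and 3 differed by 0.25. Vps13b was at 10.05, 10.05 and 10.07. Vps13c was tied at 8.02, the called member nearest to the background level. Vps13d at 7.39, 7.39 and 7.38 was not called, although its probe sets disagreed, at 8.11 and 6.66, and the higher one alone would be called.

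BAR-domain sorting nexins, which bend endosomal membrane into tubules, were called in 7 of 12 genes, 58.3% against 36.6% of all named genes. Snx5 was at 9.99, 9.97 and 10.02, Snx4 tied at 9.85, and Snx1 at 9.76, 9.73 and 9.91. Snx1 and Snx5 act with Snx2 and Snx6 as paired subunits, and these too were called with 3 arrays. Snx2 was at 9.16, 8.97 and 9.30 (adjusted p = 0.00545, limma) and Snx6 at 9.15, 8.94 and 9.14 (adjusted p = 0.0028). Replicate 2 was lowest in all 4 genes of that pairing. This order was common, since 79.4% of all called genes with untied values were lower in replicate 2 than in replicate 3. Without replicate 3 the group's count fell from 7 to 4, since Snx2, Snx6 and Snx7 missed the threshold (adjusted p = 0.0689, 0.0743 and 0.0502), and Snx2 missed it without replicate 1 as well (adjusted p = 0.076). Snx9, a nexin of endocytosis, was tied at 8.40, while Snx8 and Snx33 were both tied at 6.54.

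Of the other sorting nexins 7 of 18 were called, 38.9%, near the 36.6% of all named genes. Snx13, which binds lipids where the endoplasmic reticulum meets endosomes and droplets, was at 10.81, 10.70 and 10.87, or 2.81 above the level (SE 0.05, adjusted p = 0.000235, limma). Snx3, which works with retromer, was tied at 10.53, and Snx27, which returns receptors to the cell surface, was at 9.98, 9.94 and 10.01. Snx25 (9.75 ± 0.05) and Snx14 (9.44, tied), relatives of Snx13, were called as was Snx19 (8.24 ± 0.01). Snx12, close in sequence to Snx3 and X-linked, was at 8.23 ± 0.01. Snx17, a retriever partner, lay just under the level at 7.95, 7.95 and 7.96. The lowest was Snx22 at 6.34, 6.44 and 6.24, and Snx20, a nexin of blood cells, ranged most within the group, at 7.20, 7.28 and 6.90.

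Members that the naming rule takes in without a place in these groups were all below the level. They were Vps45, a SNARE-binding protein of the trans-Golgi network, at 7.57, Vps9d1 at 7.37, Vps72, a chromatin protein despite its symbol, at 7.58, and Snap91, a clathrin assembly protein and no SNARE, at 7.30, 7.33 and 7.30. On chromosome X lay 4 members, of which 1, Snx12, was called (25% against 36.6% of all named genes). The others were Sytl4, Sytl5 and Vamp7.

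Among members the values of the arrays lay close together, with many exact ties. Exactly equal values on all 3 arrays were held by 68 of 145 members, as by 46.0% of all named genes. Some different members shared a tied value: Snx8, Snx33 and Syt12 at 6.54, Snx16 and Vps37b at 6.78, Vps9d1 and Ykt6 at 7.37. Where the ties come from was not tested, so the closeness of the arrays is no measure of reproducibility. The median SD of the 77 untied members was 0.045, against 0.054 for all untied genes. A range over 0.2 was found in 14 members (9.66%), against 12.0% of all named genes. The order of replicates 2 and 3 differed between called members and the rest. Of the 77 untied members 48 were higher in replicate 3 than in replicate 2 and 24 were lower. Of the 41 called members with untied values, 37 were higher in replicate 3 (90.2%), and among all called genes with untied values the share was 79.4%. Of the 36 untied members that were not called, 11 were higher in replicate 3 and 20 lower, and of all untied genes, called or not, 45.1% were higher. Replicate 2 was lower than replicate 1 in 26 of the 41 (63.4%) and higher in 4 (9.76%). Among all called genes with untied values the shares were near these, 61.6% lower and 11.3% higher. The median over all named genes, called or not, was 7.46 in replicate 2 against 7.44 in each of the others. The mean levels of the spermatid and spermatocyte markers were lowest in replicate 2, at 12.05 and 10.50, and highest in replicate 3, at 12.11 and 10.62, and Sertoli markers had the same order. Leydig, peritubular and blood markers were lowest in replicate 2 too but highest in replicate 1. The lists for spermatogonia and for neurons and endocrine cells were highest in replicate 2. Whether this order comes from the cells or from the arrays was not tested.

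**Figure D3:**
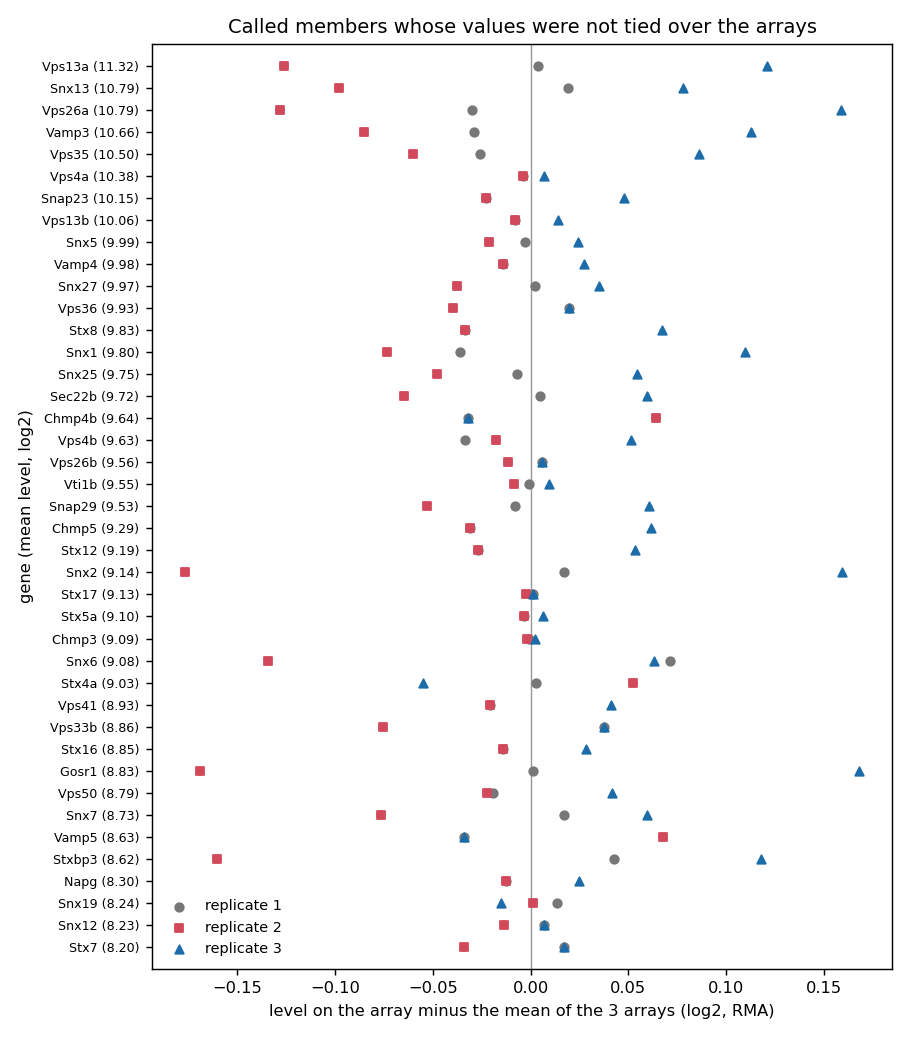
Level on each array minus the mean of the 3 arrays (x axis, log2) for the 41 called members whose values were not tied (rows, with the mean level). In 37 of the 41 rows the triangle of replicate 3 lies right of the square of replicate 2, with the widest gaps in Gosr1 and Snx2.

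Genes of the same pathways outside the naming rule were set beside the members. Of 70 such genes measured 42 were called. Among ESCRT partners 10 of 11 were, from Stam2, which hands ubiquitinated cargo to ESCRT-I, at 9.61 to Mvb12b, not called, at 6.21. Early endosome genes were called in 11 of 12 cases, from Hook1, a microtubule linker of the spermatid manchette, at 12.00 to Rabep2 at 7.05. Of 10 exocyst genes 7 were called, with Exoc2 at 10.06 and Exoc3l2 at 7.55, and of 9 retromer partners and WASH genes 4 were, with Washc4 at 9.19 and Tbc1d5 at 6.77. Fusion helpers were called in 6 of 13 cases, among them Nsf at 8.14, with Snapin at 10.08 and Cadps, a priming factor of dense-core granules, at 5.96 as the extremes. Of 15 further C2-domain genes 4 were called, which is 26.7%, with Esyt2 at 9.40 and Fer1l4 at 5.90. As among the members, the C2-domain genes were called at a share below the 36.6% of all named genes and the endosomal lists at shares above it. At the 99th percentile level this turned for the retromer partners and WASH genes, with 0 of 9 called by limma (0 at an unadjusted p below 0.05) against 19.3% of all named genes.

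**Figure D4:**
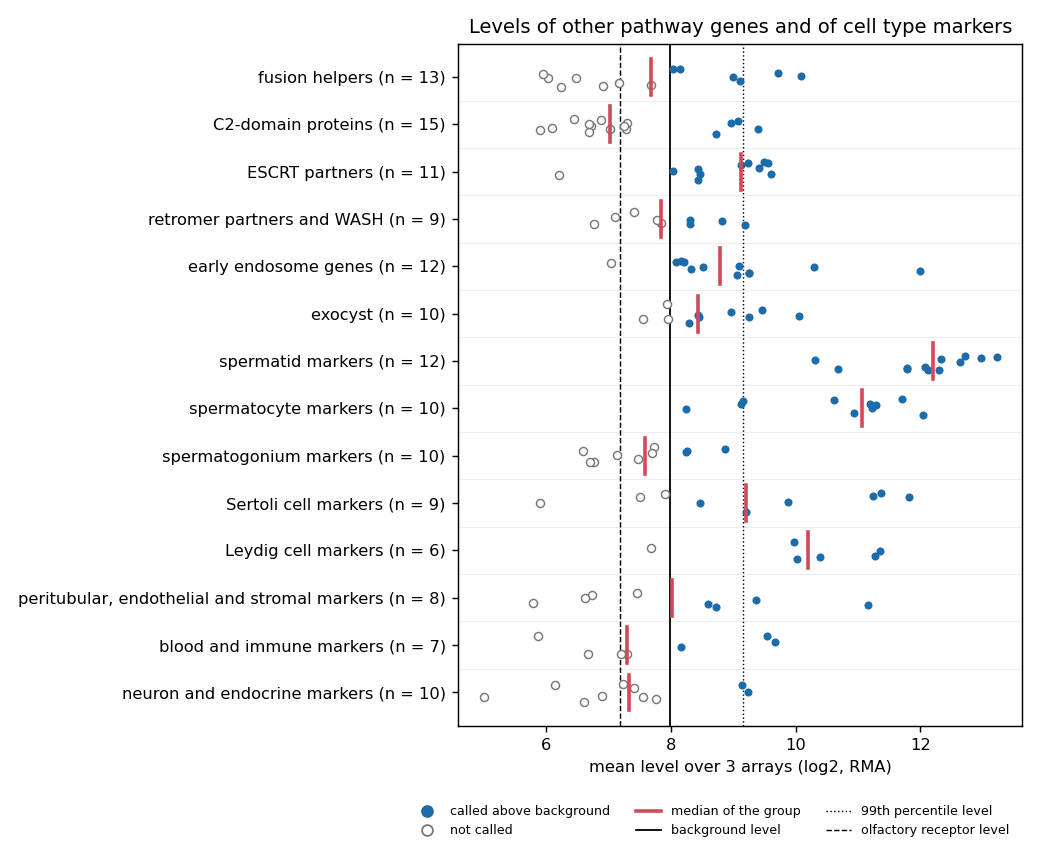
Mean log2 levels over 3 arrays (x axis) of pathway genes that are not members and of cell type markers (rows), with the same symbols and lines as in the plot of members by role. The medians run from 7.03 for the C2-domain genes to 12.2 for the spermatid markers.

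Promoter sequences from RefSeq (GRCm38.p6) were at hand for 107 members and for 15563 named genes in all, and the 250 bases before each start site were read. For a gene with several start sites the highest CG count was kept, and a motif counted if it lay before any of them. Genes with more start sites therefore had more chances of a high count or a match. By this rule called members had a median of 17 CG dinucleotides, members not called 16.5, all called genes 17 and all genes 12. The CRE, spelled TGACGTCA, is bound by the spermatid activator CREM. It was present in 2 of 107 members (1.87%), in 2.34% of all genes and in 3.45% of all called genes. The members were Gosr2 (10.15) and Stxbp3 (8.62 ± 0.14), both called. The core of the CLEAR element, spelled TCACGTGA, is bound by TFEB, an activator of lysosome genes. It was present in 4 members (3.74%), in 1.25% of all genes and in 1.94% of all called genes. The 4 members were Vps26a, Vps16 and Vps33a, which were called, and Stx6, which was not. Stretches with these motifs are shown 5′ to 3′ on the gene's strand with the motif in capitals, because they belong to members described above. A match of letters is not a binding site, and no binding was measured.

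The CRE of Gosr2 lies at chr11:103697929-103697958 and that of Stxbp3 at chr3:108840563-108840650, both on the minus strand.
Gosr2: gggggaggctcTGACGTCAgtgcctcgcga
Stxbp3: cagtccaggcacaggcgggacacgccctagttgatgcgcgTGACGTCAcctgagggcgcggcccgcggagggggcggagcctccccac

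The CLEAR cores lie at chr10:62486941-62487028 (Vps26a, minus strand), at chr10:62486732-62486761 before another start site of Vps26a, at chr2:130424290-130424319 (Vps16, plus strand), at chr5:123573026-123573055 (Vps33a, minus strand, which holds 2 copies in its 250 bases) and at chr1:155158606-155158635 (Stx6, plus strand).
Vps26a: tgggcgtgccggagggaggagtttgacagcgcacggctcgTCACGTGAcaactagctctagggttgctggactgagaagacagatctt
Vps26a, other start: atggcctacggTCACGTGAcgggcggcggg
Vps16: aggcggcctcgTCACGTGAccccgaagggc
Vps33a: agcgactcggaTCACGTGAacgtcccgtca
Stx6: ggcgatctgggTCACGTGAgcctgagtgcg

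Other motifs searched on both strands were the shorter CRE core TGACG, in 29.9% of members and 24.1% of all genes, the TATA box TATAAA, in 4.67% and 12.5%, and the GC box GGGCGG, in 65.4% and 49.4%. The CCAAT box was present in 33.6% of members and 38.9% of all genes, the X-box core GTTGCCA in 1.87% and 3.89%, and the ETS site CCGGAAG in 12.1% and 10.7%. Among all called genes the shares were 31.8% for TGACG, 8.27% for the TATA box and 60.95% for the GC box. For the CCAAT box the share was 40.8%, for the X-box core 4.8% and for the ETS site 16.7%. Every CRE also holds the shorter core. The 5 members with a TATA box were Snx33, Stx2, Stx3, Vps13d and Vps37c, of which Stx2 and Vps37c were called.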

How the data were processed

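RNA of 3 samples in 1 group was measured on Affymetrix arrays. The deposited values are log2 levels of 35556 probe sets, made by the authors with RMA in Affymetrix Power Tools on mm9, per the series' design text (the log2 scale is read from the values); no source used here gives the software version. Column medians were 7.17, 7.20 and 7.17. The platform annotation named 1 gene for 21789 probe sets, several for 1621 and none for 12146, and symbols were updated by Entrez identifier to GRCm38.p6 (21698 matched). Probe sets naming the same gene were combined by their median, and probe sets of several genes were left out.

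Calls used limma 3.58.1 in R 4.3.3, across all 19938 genes, as an intercept model with a one-sided test against the background level and Benjamini-Hochberg adjustment at 0.05. The prior had 0.267 degrees of freedom. The procedure was tested on simulated data that held no tied values. That test therefore cannot speak for calls in these data, where many genes were tied. Members, gene lists and motifs were chosen with earlier results of these data known, and the motifs after a first look at others. Every member may be named. Values on each array are given for the 3 highest and the lowest of each role, the 5 with the largest range and those nearest the level, and for some others chosen after their values were seen. The number of arrays limits the precision, and scanner files, detection calls and probe sequences were not used here.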

Additional observations from a re-analysis of the deposited data

Results flagged for a closer look

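Signal lay in probe sets that the counts do not use because each names several genes. The probe set naming Ubr3 and Vamp2 was at 9.46 ± 0.01 (n = 3), 1.48 above the background level, with 9.46, 9.47 and 9.46 on the arrays. The probe set naming Stxbp3-ps, a pseudogene, and Stxbp3 was at 9.27 ± 0.11, 1.29 above it, with 9.26, 9.17 and 9.38. Neither can be assigned to 1 of its genes here. Groups of 3 samples were too small for a test of outlying arrays.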

How the results depend on the processing

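The count of members above background was 72 and ran from 64 to 73 when 1 replicate was left out, from 62 to 74 over limma-trend, the highest probe set per gene, probe sets of several genes added (which raises the level to 8.37), arrays shifted to a common median, dim genes left out and the rule of all 3 arrays above the level. It was 34 at the 99th percentile level and 109 at the olfactory receptor level. Other pathway genes above background were 42, 39 to 42 without 1 replicate, and 13 at the 99th percentile level. Role groups with a share above that of all genes were 12 of 16, 11 to 12 without 1 replicate, 8 at the 99th percentile level, 14 at the olfactory receptor level, and 4 with dim genes left out, where the share of all genes tested rose to 74.1% by construction. The median member level of 8.11 did not move, and untied members numbered 77, or 57 to 72 on pairs of arrays.

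At the 99th percentile level 38 members lost the call. Among those that the naming rule gives array by array, Stx12 stayed above the level (0.0324, adjusted p = 0.762, limma), and the excess turned negative for Napa (-0.77), Napg (-0.86), Stxbp2 (-0.056), Stxbp6 (-0.37), Syt10 (-0.55), Vps11 (-0.22), Vps41 (-0.24), Vps50 (-0.37), Vps53 (-0.58), Vps13c (-1.14), Gosr1 (-0.33), Snx2 (-0.0191) and Bet1l (-1.05). Stx7, Stxbp3 and Snx6, also given array by array, lay below that level as well. Under the level of 8.37, 10 members lost the call: Stx7, Chmp7, Sec22a, Snx12, Snx19, Vps16, Vps37c, Napg (-0.064), Vps13c (-0.35) and Bet1l (-0.26). No paired analysis was possible because there is 1 group.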
